A study of Homo sapiens with 9 samples.

Results

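The 10 genes described here encode the enzymes that make serine and pass its carbon to folate. They were chosen by name: PHGDH, PSAT1 and PSPH for serine synthesis, SHMT1 and SHMT2 for the step from serine to glycine, and MTHFD1, MTHFD2, MTHFD1L, MTHFD2L and ALDH1L2 for the folate-bound carbon units. The deposited table held 26475 gene symbols, and all 10 members were among them. All 10 were also among the 16417 genes that passed the filter on low counts and were tested.

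Cells make serine from an intermediate of glycolysis in a short chain of reactions that begins with PHGDH and ends with PSPH. SHMT2 in mitochondria and SHMT1 in the cytosol split serine into glycine and a single carbon unit held by folate, which is used to build purines and thymidylate and to regenerate methionine. In mitochondria MTHFD2 oxidises that unit, MTHFD1L releases it as formate and ALDH1L2 oxidises it to carbon dioxide. Cytosolic MTHFD1 returns formate to folate. Several of these genes are known targets of ATF4, the transcription factor of the amino acid stress response, and extra copies of PHGDH are known in some melanomas.

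A375, an established human melanoma cell line with a BRAF mutation, was treated for 24 h with DMSO as vehicle or with 5 µM or 10 µM of TP-472, a small molecule that inhibits BRD9 and BRD7, readers of acetylated histones. Each group had 3 libraries, labelled as biological replicates, and all 9 came from this single line grown in DMEM with 10% fetal bovine serum, a medium that itself contains serine and glycine. RNA-seq measured mRNA only, so neither enzyme protein nor serine itself was measured. The comparisons asked how mRNA levels differed between each dose and DMSO and between the doses.

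The libraries held 42483091 to 51298130 expected counts, and the 10 members together took 0.0712% to 0.0864% of them. The members' expected counts ranged from 159 for MTHFD2L to 9313 for PHGDH in a single library. The share of ribosomal RNA genes was 8.79% to 10.9% in DMSO libraries, 10.6% to 16.6% with 5 µM TP-472 and 8.2% to 19.9% with 10 µM. Replicate 1 of the 10 µM group stood apart from its group. The SD of its log2 deviations from the mean of the other libraries of its group, over all tested genes, was 1.22. This SD was 0.919 and 0.947 for the other 10 µM libraries, 0.677 to 0.806 at 5 µM and 0.485 to 0.516 in DMSO. SOX10, a neural crest factor of melanoma cells, was at 363 to 425 CPM (counts relative to the TMM-scaled library size) and MITF at 23.3 to 35.8. TYR was at 0 in all 9 libraries and DCT at 0 in 8, so these markers of pigment cell differentiation were absent or nearly so. PMEL, another such marker, was low, at 0.968 to 2.87 CPM. The summed CPM of the 10 melanocyte markers was 459.53 to 479.77 with DMSO, 460.11 to 471.98 with 5 µM and 412.14 to 460.27 with 10 µM TP-472. SOX10 made most of this sum, which therefore says little about the others. S100A1, for instance, went from a mean of 3.11 CPM in DMSO to 1.89 at 5 µM and 1.05 at 10 µM. A list of 12 markers of other cell types summed to 70.9 to 74.8 CPM with DMSO, 99.4 to 100.3 with 5 µM and 99.1 to 148 with 10 µM, of which CD68, also a lysosomal protein, made 53.3 to 129. In that list CD3E was at 0 in all 9 libraries and CDH1 at 0 in 7, whereas 5 of the 12 had a mean of at least 1 CPM. Beside CD68 these were KRT14 at 5.50 to 8.76 CPM, LUM at 2.09 to 3.93, PECAM1 at 0.759 to 2.12 and PDGFRA. PDGFRA went from a mean of 3.31 CPM in DMSO to 0.977 at 10 µM. The part of these marker and ribosomal RNA values in the results below was not tested.

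In DMSO the members differed widely in level. Per kilobase of the principal transcript, PHGDH stood at 69.9 ± 2.26 CPM (SD, n = 3) and SHMT2 at 69.3 ± 1.88, and the DMSO libraries of this pair overlapped. PSAT1 followed at 49.5 ± 0.294, MTHFD1 at 43.5 ± 0.857, MTHFD2 at 26.0 ± 0.324 and SHMT1 at 21.1 ± 0.474 CPM per kilobase. MTHFD1L at 10.1 ± 0.199 and PSPH at 9.47 ± 0.295 were lower, without overlap between any of these neighbours in the order. MTHFD2L, the less used mitochondrial relative of MTHFD2, was at 2.05 ± 0.185 and ALDH1L2 at 2.03 ± 0.0487, and their libraries overlapped. The highest and lowest means were 34.4-fold apart, SHMT2 was 3.28-fold above SHMT1, and MTHFD2 was 12.7-fold above MTHFD2L. PHGDH, the entry step of serine synthesis, was 7.39-fold above PSPH, its last step. Each length is that of 1 annotated transcript, and the transcripts that A375 uses were not measured, so this order rests on that choice. In CPM without a length, ALDH1L2 was at 15.4 and MTHFD2L at 4.71 in DMSO. At 10 µM the order per kilobase was SHMT2 (65.4 ± 8.96), PSAT1 (59.8 ± 1.91), PHGDH (53.2 ± 9.16), MTHFD2 (32.3 ± 1.23), MTHFD1 (30.4 ± 2.50), PSPH (16.9 ± 0.292) and SHMT1 (14.7 ± 1.91). SHMT2 and PSAT1 overlapped there, as did PSAT1 and PHGDH, MTHFD2 and MTHFD1, and PSPH and SHMT1. MTHFD2, below MTHFD1 in every DMSO library, was above it within each 10 µM library, narrowly in replicate 3. Across the 10 µM libraries the ranges overlapped (31.0 to 33.5 for MTHFD2 and 27.5 to 32.2 for MTHFD1).

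RefSeq sequences upstream of the gene starts (GRCh38.p14) are shown for the members that rose or fell at 10 µM, to set the letters next to the values that follow. Of the 10 members, 7 matched an entry, and PSPH, SHMT2 and ALDH1L2 did not. Searched on both strands in the 250 bases before each start were TGATGNAA, the core of the element bound by ATF4 with C/EBP proteins, CACGTG, the E-box, and CCAAT, the CCAAT box, written ATTGG on the other strand. These motifs share no overlapping match in the windows shown, and capitals mark every match in the bases printed. For PSAT1, MTHFD2 and SHMT1, any bases that GENCODE 29 places in an exon of the same gene are left out. For MTHFD1L, PHGDH and MTHFD1 the match shown lies in such an exon, inside the GENCODE span of the gene. Of these windows only that match, the first exonic match in the order of motifs above, is printed, with flanks of up to 10 bases. Not printed are CACGTG and CCAAT of MTHFD1L, ending 149 and 189 bases before the start, and CCAAT of MTHFD1, ending 212 bases before it. PSAT1 (chr9:78296875-78297124, plus strand) has CCAAT 3 times, ending 109, 79 and 48 bases before the start. MTHFD2 (chr2:74198365-74198561, plus strand) has it 2 times. SHMT1 (chr17:18363564-18363800, minus strand) has it 1 time on each strand, and MTHFD1L (chr6:150866347-150866374, plus strand), PHGDH (chr1:119711853-119711877, plus strand) and MTHFD1 (chr14:64388328-64388352, plus strand) are shown at a single match.
PSAT1: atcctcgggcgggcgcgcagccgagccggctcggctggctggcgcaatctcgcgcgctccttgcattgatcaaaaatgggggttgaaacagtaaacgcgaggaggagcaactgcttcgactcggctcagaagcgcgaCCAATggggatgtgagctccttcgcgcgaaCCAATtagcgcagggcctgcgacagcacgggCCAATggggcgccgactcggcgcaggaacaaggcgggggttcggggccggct
MTHFD2: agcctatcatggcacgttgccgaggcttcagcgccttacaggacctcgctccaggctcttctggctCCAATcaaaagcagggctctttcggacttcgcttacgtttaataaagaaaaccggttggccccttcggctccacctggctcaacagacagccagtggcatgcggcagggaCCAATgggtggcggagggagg
MTHFD1L: ccgccggctcTGATGCAAtcgcgccggg
SHMT1: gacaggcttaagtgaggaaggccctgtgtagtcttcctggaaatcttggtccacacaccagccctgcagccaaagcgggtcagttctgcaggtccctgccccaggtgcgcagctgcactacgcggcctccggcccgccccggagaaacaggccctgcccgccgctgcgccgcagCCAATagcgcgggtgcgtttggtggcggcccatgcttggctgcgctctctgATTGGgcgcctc
PHGDH: gtatttccgtCCAATcaaaaggaga
MTHFD1: agtccctaagCACGTGggttgggtt

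CCAAT was in the 250-base window of 6 of the 7 matched members, MTHFD2L being the exception, and in 32% of all 35116 promoter entries. CACGTG was in the windows of MTHFD1 and MTHFD1L, 2 of 7 members, against 6.34% of all entries. TGATGNAA was in the window of MTHFD1L, 1 of 7 members, against 3.14% of all entries. Of 15 matched genes in the list of ATF4 and its stress targets described below, 3 had TGATGNAA (ASNS, CEBPG and CHAC1), 7 had CCAAT and 3 had CACGTG. These are matches of letters near annotated starts. A gene was counted if any of its starts had a match, whereas the shares of all entries count each start, so the units differ. MTHFD1L had 4 starts, and its printed sequence is from the first.

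At 10 µM, 4 of the 10 members rose and 3 fell against DMSO, and none changed by as much as 2-fold. PSPH rose most, followed by MTHFD2, PSAT1 and MTHFD1L, and SHMT1, MTHFD1 and PHGDH fell. Over all tested genes 16.4% rose and 18% fell (34.3% in either direction), with a call set at an adjusted p under 0.05 from the quasi-likelihood test of edgeR and the Benjamini-Hochberg method. With a fold of at least 1.5 added, PSPH was the 1 member that rose (8.57% of all genes) and 0 members fell (10.5% of all genes). Each of the 7 had all 3 libraries at 10 µM on the same side of all 3 DMSO libraries, 4 above (23.4% of all genes) and 3 below (26%). The median log2 fold change of the members was 0.04, against 0.01 over all genes, with rises and falls side by side. In bulk RNA a change in every cell and a change in the mix of cell states cannot be told apart.

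At 5 µM, 1 member rose (PSPH) and 2 fell (PHGDH and SHMT1), beside 4.4% and 5.81% of all genes (10.2% in either direction). No member passed with a fold of at least 1.5 (2.14% of all genes higher, 2.72% lower), and 3 members lay above DMSO without overlap (23.7%) and 5 below (25%). Between the doses 2 members were higher at 10 µM (PSPH and MTHFD2) and 0 lower, beside 2.87% and 5.53% of all genes (8.4% in either direction). None passed with the added fold (1.42% higher, 2.59% lower), and 3 members lay above the 5 µM libraries without overlap (12.1%) and 1 below (16.2%). DESeq2 and limma-voom each called 1 member lower between the doses, but the share of all genes that they called lower was not counted. Any pair of the 3 comparisons shares a group of libraries.

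**Figure D1:**
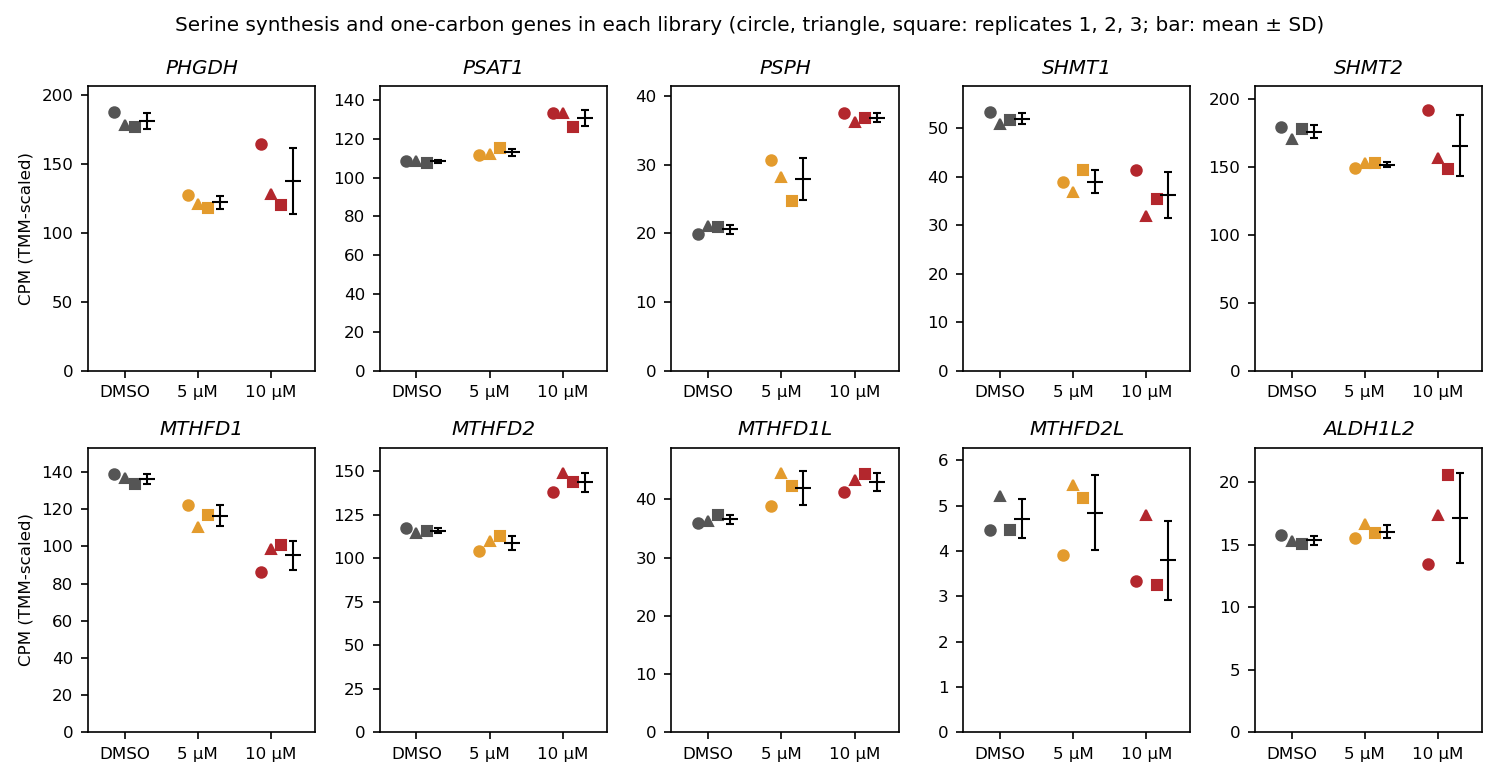
CPM (TMM-scaled, linear axes from 0) of each of the 10 genes in every library, by group, with circle, triangle and square for replicates 1, 2 and 3 and a bar for the mean ± SD (n = 3). PSPH climbed from 19.9 to 21.1 CPM in DMSO to 36.2 to 37.5 at 10 µM, while the 10 µM libraries of PHGDH, SHMT2 and ALDH1L2 spread widely.

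PSPH, the phosphatase that releases free serine (chr7:56011051-56051604 on GRCh38, minus strand, 8 exons), had the largest change of the 10 genes. It was at 19.9, 21.1 and 20.9 CPM in the DMSO libraries, 30.7, 28.1 and 24.7 at 5 µM and 37.5, 36.2 and 36.8 at 10 µM. The 3 groups did not overlap, and the 5 µM libraries lay between the other two groups. At 10 µM the log2 fold change against DMSO was 0.84 ± 0.09 (SE, a rise of 78.7%, edgeR adjusted p = 0.000107), and this call held under all 18 alternatives. At 5 µM it was 0.43 ± 0.09 (a rise of 35.0%, edgeR adjusted p = 0.0157), a call lost when DMSO replicate 1, 2 or 3 or 5 µM replicate 1 or 2 was left out (adjusted p of 0.0631 to 0.0901). The 10 µM libraries were above the 5 µM libraries by 0.40 ± 0.09 on the log2 scale (edgeR adjusted p = 0.0258), a call lost without DMSO replicate 1, 2 or 3 or 5 µM replicate 2 or 3 (0.0561 to 0.104) and with only those 2 groups in the fit (0.113).

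PSAT1, the aminotransferase of the middle step (chr9:78297143-78330093, plus strand), was nearly level at 5 µM and higher at 10 µM. Its libraries were at 109, 109 and 108 CPM in DMSO, 112, 112 and 115 at 5 µM and 133, 133 and 126 at 10 µM, without overlap between groups. The rise at 10 µM was 20.8% (log2 fold change 0.27 ± 0.06, edgeR adjusted p = 0.00759), and it was called under all 18 alternatives. At 5 µM the log2 fold change of 0.06 ± 0.06 did not pass (adjusted p = 0.635, 95% interval -0.08 to 0.20). Between the doses PSAT1 differed by 0.21 ± 0.06 (adjusted p = 0.0661), which passed with upper-quartile factors (0.0487), the filter of at least 1 CPM (0.0428), DESeq2 (0.000890) and without 10 µM replicate 1 (0.00346).

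PHGDH, the dehydrogenase that draws carbon from glycolysis (chr1:119648411-119744226, plus strand), went the opposite way from the other two genes of serine synthesis. It was at 187, 178 and 176 CPM in DMSO, 127, 121 and 118 at 5 µM and 164, 128 and 120 at 10 µM. Every treated library was below every DMSO library, and at 10 µM replicate 1 sat far above the other two, which were close to the 5 µM libraries. At 5 µM PHGDH fell by 0.57 ± 0.11 on the log2 scale (a change of -32.4%, edgeR adjusted p = 0.0102), a call lost without DMSO replicate 1 (0.0551) or 5 µM replicate 3 (0.0541). At 10 µM it fell by 0.39 ± 0.11 (a change of -23.9%, edgeR adjusted p = 0.0195), a call lost with only the 2 groups compared in the fit (0.0613) and without DMSO replicate 1 (0.0733) or 2 (0.0531) or 10 µM replicate 2 (0.0557) or 3 (0.0541). Without 10 µM replicate 1 the log2 fold change at 10 µM was -0.55 (adjusted p = 1.35e-07). The doses did not differ detectably (log2 difference 0.17, 95% interval -0.07 to 0.42, adjusted p = 0.367), and the mean was lower at 5 µM (122 CPM) than at 10 µM (138 CPM).

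The carbon of serine is taken up by SHMT1 in the cytosol and SHMT2 in mitochondria. SHMT1, the cytosolic serine hydroxymethyltransferase (chr17:18327860-18363563, minus strand), was at 53.3, 51 and 51.8 CPM in DMSO, 38.9, 36.8 and 41.4 at 5 µM and 41.3, 32 and 35.5 at 10 µM. All 6 treated libraries were below all DMSO libraries, and the dose groups overlapped. SHMT1 fell by 0.52 ± 0.10 on the log2 scale at 10 µM (a change of -30.3%, edgeR adjusted p = 0.00299), called under all 18 alternatives, and by 0.41 ± 0.10 at 5 µM (edgeR adjusted p = 0.0275). The 5 µM call was lost whenever a DMSO or 5 µM library, any of the 6, was left out (adjusted p of 0.0622 to 0.118). Between the doses SHMT1 differed by -0.11 (adjusted p = 0.553), and without 10 µM replicate 1 by -0.21 (0.0348).

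SHMT2, its mitochondrial counterpart (chr12:57229327-57234935, plus strand), was not called in any of the 3 comparisons. It was at 179, 170 and 178 CPM in DMSO, 149, 153 and 153 at 5 µM and 192, 157 and 149 at 10 µM. The 5 µM libraries were all below DMSO, and at 10 µM replicate 1 lay above every DMSO library while the other two lay below. The log2 fold change was -0.21 ± 0.09 at 5 µM (adjusted p = 0.195, 95% interval -0.42 to -0.00) and -0.08 ± 0.09 at 10 µM (adjusted p = 0.525, 95% interval -0.29 to 0.12). SHMT2 rested on that library: without 10 µM replicate 1 the values were -0.21 (edgeR adjusted p = 0.000371) and -0.20 (0.000785), both called, and the 5 µM value also passed with only the 2 groups compared (0.000158).

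MTHFD1, the cytosolic enzyme with 3 activities that links formate, methylene and methenyl folates (chr14:64388031-64463457, plus strand, 28 exons), fell at 10 µM and had intermediate values at 5 µM. It was at 139, 137 and 134 CPM in DMSO, 122, 110 and 117 at 5 µM and 86.3, 98.6 and 100.85 at 10 µM. The 3 groups did not overlap, with the 10 µM libraries lowest. At 10 µM MTHFD1 fell by 0.52 ± 0.08 on the log2 scale (a change of -30.2%, edgeR adjusted p = 0.000841), called under all 18 alternatives. The values of -0.23 ± 0.08 at 5 µM (adjusted p = 0.103) and -0.29 ± 0.08 between the doses (0.0510) did not pass. Both passed under DESeq2 (0.0469 and 0.0124) and without 10 µM replicate 1 (0.000622 and 0.00285). The 5 µM value also passed with only the 2 groups compared (0.000390), and the difference between doses with limma-voom (0.0461), the filter of at least 1 CPM (0.0486) and without 10 µM replicate 3 (0.0468).

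MTHFD2, the mitochondrial dehydrogenase and cyclohydrolase known for its high level in tumours (chr2:74198562-74217565, plus strand), was higher at 10 µM and not at 5 µM. Its libraries were at 118, 115 and 116 CPM in DMSO, 104, 110 and 113 at 5 µM and 138, 149 and 144 at 10 µM. All 5 µM libraries were below all DMSO libraries, and all 10 µM libraries were above both groups. MTHFD2 rose by 0.31 ± 0.07 on the log2 scale at 10 µM (24.1%, edgeR adjusted p = 0.00512), called under all 18 alternatives, and had a log2 fold change of -0.09 ± 0.07 at 5 µM (adjusted p = 0.469). The direct difference between the doses was 0.40 ± 0.07 (32.1% higher at 10 µM, edgeR adjusted p = 0.00584), which was lost only with those 2 groups alone in the fit (0.0630).

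MTHFD1L, the mitochondrial formate-releasing relative of MTHFD1 (chr6:150865549-151101887, plus strand, 28 exons), was at 36.0, 36.4 and 37.4 CPM in DMSO, 38.8, 44.6 and 42.3 at 5 µM and 41.2, 43.2 and 44.3 at 10 µM. All treated libraries were above all DMSO libraries, and the doses overlapped. The log2 fold change was 0.20 ± 0.08 at 5 µM (adjusted p = 0.147) and 0.23 ± 0.08 at 10 µM (17.4%, edgeR adjusted p = 0.0428), the weakest of the 7 calls at this dose. That call was lost in 10 of 18 alternatives: with no filter (0.0899), with a replicate block (0.0572), with only the 2 groups compared (0.0661) and without DMSO replicate 1, 2 or 3, 5 µM replicate 2 or 3 or 10 µM replicate 2 or 3 (0.0572 to 0.146). The 5 µM value passed without 10 µM replicate 1 (0.0177) and with only the 2 groups compared (0.0136).

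MTHFD2L and ALDH1L2, the least expressed of the 10 per kilobase, were not called in any of the 3 comparisons. MTHFD2L (chr4:74114174-74303099, plus strand) was at 4.47, 5.21 and 4.47 CPM in DMSO, 3.90, 5.46 and 5.17 at 5 µM and 3.35, 4.79 and 3.24 at 10 µM, with all groups overlapping. It had 159 to 282 expected counts per library, and its log2 fold change at 10 µM was -0.31 (adjusted p = 0.272, 95% interval -0.77 to 0.14), an interval that holds the value of SHMT1 (-0.52) as well as 0. ALDH1L2, which oxidises formyl folate in mitochondria (chr12:105019784-105084577, minus strand), was at 15.8, 15.3 and 15 CPM in DMSO, 15.6, 16.6 and 15.9 at 5 µM and 13.4, 17.4 and 20.6 at 10 µM. Its 10 µM libraries lay on both sides of DMSO. The log2 fold change at 10 µM was 0.16 ± 0.14 (adjusted p = 0.414, 95% interval -0.15 to 0.47), and without 10 µM replicate 1 it was 0.30 (edgeR adjusted p = 0.0124).

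**Figure D2:**
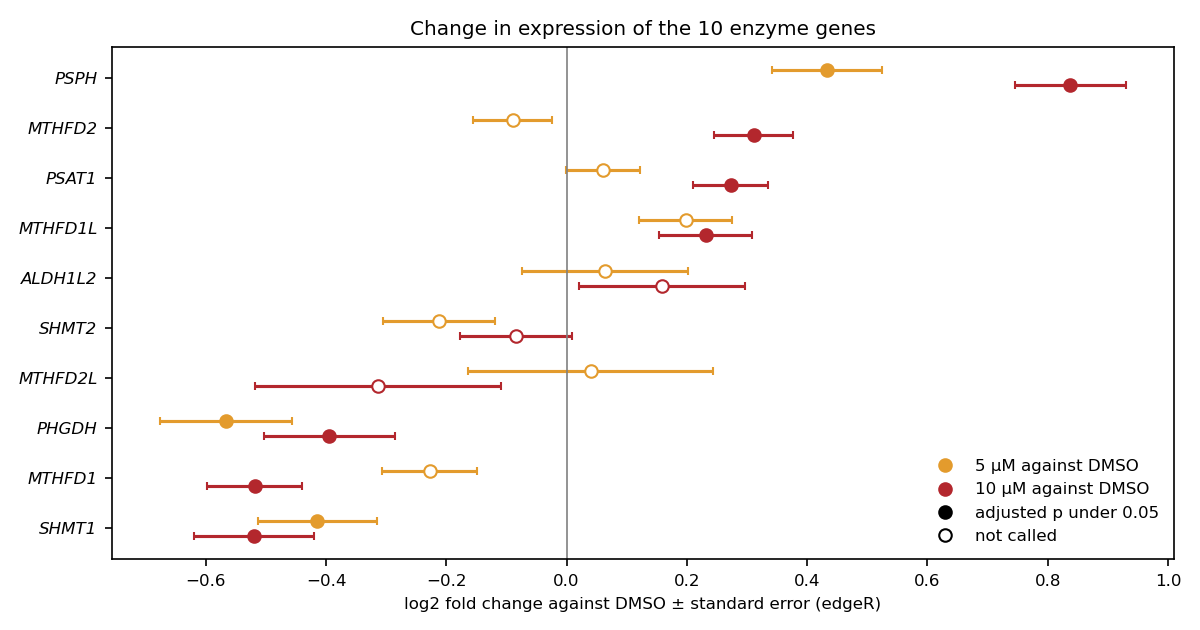
Log2 fold change against DMSO ± standard error (edgeR, n = 3 libraries per group) of the 10 genes at 5 µM and 10 µM, ordered by the 10 µM value, with filled points for an adjusted p under 0.05. At 10 µM PSPH lies farthest right at 0.84 and SHMT1 and MTHFD1 farthest left at -0.52, PHGDH is at -0.57 at 5 µM, and MTHFD2 lies on opposite sides of 0 at the 2 doses.

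Without 10 µM replicate 1 the spread between libraries was smaller and more genes were called in all. At 5 µM 2 members then rose and 4 fell (16.5% and 17.6% of 16745 genes), at 10 µM 5 rose and 4 fell (23% and 25.8%), and between the doses 3 were higher and 2 lower (8.8% and 15.4%). Each of the 7 members called at 10 µM with all libraries kept its call and direction, with PSPH at 0.82, MTHFD2 at 0.34, PSAT1 at 0.26, MTHFD1L at 0.26, MTHFD1 at -0.46, PHGDH at -0.55 and SHMT1 at -0.63 on the log2 scale. ALDH1L2 joined the rises and SHMT2 the falls.

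Ratios within a library, which do not depend on scaling between libraries, set mitochondrial enzymes against the cytosolic SHMT1 or MTHFD1. MTHFD1 is not the same enzyme as ALDH1L2, so that ratio does not compare forms of 1 enzyme. The ratio of SHMT2 to SHMT1 in CPM was 3.36, 3.34 and 3.44 in DMSO, 3.84, 4.15 and 3.699 at 5 µM and 4.64, 4.90 and 4.19 at 10 µM. The ratio of MTHFD2 to MTHFD1 was 0.846, 0.840 and 0.864 in DMSO, 0.856, 0.993 and 0.962 at 5 µM and 1.60, 1.51 and 1.43 at 10 µM. The groups did not overlap, except MTHFD2 to MTHFD1 in DMSO and at 5 µM. At 10 µM against DMSO the mean log2 ratio was higher by 0.43 for SHMT2 to SHMT1 (1.35-fold), 0.83 for MTHFD2 to MTHFD1 (1.78-fold), 0.75 for MTHFD1L to MTHFD1 (1.69-fold) and 0.66 for ALDH1L2 to MTHFD1 (1.58-fold). At 5 µM the same differences were 0.20, 0.14, 0.42 and 0.29. A 2-sided exact permutation test gave p = 0.1 for each of these except MTHFD2 to MTHFD1 at 5 µM (p = 0.2), and 0.1 is the smallest p that 3 against 3 libraries allow. Adjusted over the 12 ratio comparisons, the exact permutation p-values were 0.109 and 0.2. Of the 4 ratios, 3 share MTHFD1 as denominator, so its values enter each of them, and a ratio does not show which partner moved.

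**Figure D3:**
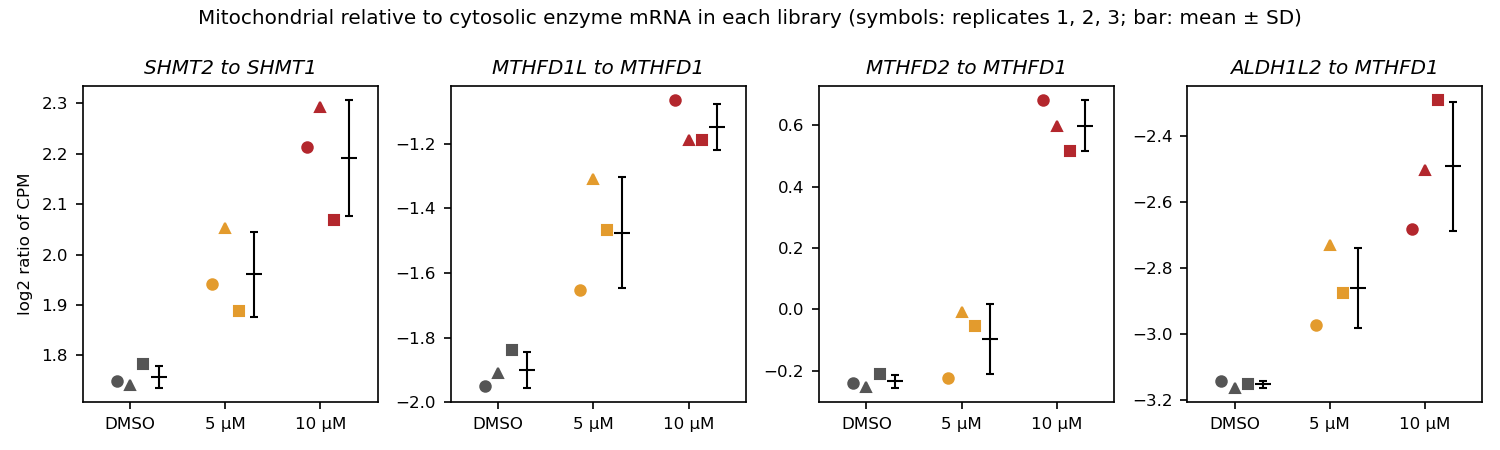
Log2 ratio of the CPM of a mitochondrial enzyme to a cytosolic enzyme, SHMT1 or MTHFD1, in each library (symbols for replicates 1, 2 and 3, bar for mean ± SD, n = 3, axes not from 0). In each panel all 3 libraries at 10 µM lie above all libraries of DMSO and of 5 µM, for instance 2.07 to 2.29 against 1.74 to 1.78 in DMSO for SHMT2 to SHMT1.

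Around the 10 members, 7 lists of related genes held 64 tested genes, of which 18 rose and 14 fell at 10 µM (all genes 16.4% and 18%). At 5 µM 5 rose and 6 fell, and between the doses 11 were higher and 3 lower at 10 µM (all genes 4.4% and 5.81%, and 2.87% and 5.53%). The median log2 fold change of these genes at 10 µM was 0.04, against 0.01 over all genes tested.

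Among 11 tested genes of the folate cycle and folate transport, 4 rose and 3 fell at 10 µM, with a median log2 fold change of 0.31. FOLR1, a folate receptor, was low throughout, at 0.559 ± 0.268 CPM (SD, n = 3) in DMSO and 1.37 ± 0.411 at 10 µM (log2 fold change 1.28 ± 0.44, edgeR adjusted p = 0.0473), and its call was lost in 10 of 18 alternatives, among them without 10 µM replicate 1 (adjusted p = 0.0978). TYMS, the thymidylate synthase that consumes methylene folate, was at 154 ± 6.42 CPM in DMSO and 154 ± 18.8 at 10 µM.

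The glycine cleavage system, the other source of mitochondrial carbon units, showed 0 rises and 0 falls among its 4 genes under edgeR at 10 µM, with a median log2 fold change of 0.05. Of 6 enzymes of de novo purine synthesis, the main user of formyl folate, 0 rose and 3 fell (median -0.23). PAICS went from 410 ± 1.90 CPM in DMSO to 289 ± 12.5 at 5 µM and 232 ± 6.24 at 10 µM, a fall of 0.82 ± 0.06 on the log2 scale (edgeR adjusted p = 1.02e-05). GART and PFAS were the other two that fell, by 0.28 and 0.55.

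In the methionine cycle and transsulfuration, 1 of 11 tested genes rose and 4 fell (median -0.12). MTR, the methionine synthase that takes methyl folate, fell by 0.82 ± 0.17 on the log2 scale, from 91.2 ± 3.57 CPM in DMSO to 51.9 ± 13.9 at 10 µM (edgeR adjusted p = 0.00464). CTH, the last enzyme of cysteine synthesis, rose from 6.96 ± 0.505 to 12.7 ± 0.106 CPM (log2 fold change 0.87 ± 0.10, edgeR adjusted p = 0.000169), while CBS, the step before it, fell by 0.49 ± 0.15 (0.0347). BHMT and BHMT2 were in the table and below the filter.

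Of 7 serine and glycine carriers, 2 rose and 1 fell (median -0.00). SLC1A4, a neutral amino acid exchanger that carries serine, rose from 21.2 ± 0.848 CPM in DMSO to 37.3 ± 2.61 at 10 µM (log2 fold change 0.81 ± 0.08, edgeR adjusted p = 7.23e-05). SLC25A38, the mitochondrial glycine carrier, rose from 37.1 ± 1.95 to 59.1 ± 7.74 CPM (0.67 ± 0.10, 0.000908). SFXN1, the main mitochondrial serine carrier, was at 84.1 ± 2.42 CPM in DMSO and 78.2 ± 7.71 at 10 µM (adjusted p = 0.378). Of 7 tested serine users, 1 rose and 0 fell (median 0.05): SDSL, a serine dehydratase relative, went from 6.96 ± 0.417 to 15.3 ± 5.49 CPM (log2 fold change 1.13 ± 0.23, edgeR adjusted p = 0.00414).

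The list of ATF4 and its stress targets had 10 of 18 genes higher and 3 lower at 10 µM, with a median log2 fold change of 0.47. At 5 µM 3 rose and 3 fell (median -0.02), beside 4.4% and 5.81% of all genes, and between the doses 9 were higher at 10 µM and 0 lower, beside 2.87% and 5.53%. ATF4 itself was at 218 ± 0.522 CPM in DMSO, 196 ± 2.04 at 5 µM and 305 ± 57.6 at 10 µM. It rose by 0.48 ± 0.11 on the log2 scale at 10 µM (edgeR adjusted p = 0.00860), by 0.31 without 10 µM replicate 1 (2.37e-06), and had -0.16 ± 0.11 at 5 µM (adjusted p = 0.458). All 5 µM libraries of ATF4 were below DMSO (25% of all genes) and all 10 µM libraries above it (23.4%). The share of all genes with both was not counted. A link between ATF4 and the members was not tested. For ATF4 the direct difference between doses was 0.64 (edgeR adjusted p = 0.00855), a call lost with only those 2 groups in the fit (0.0514).

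ASNS, the asparagine synthetase, rose by 1.10 ± 0.08 on the log2 scale at 10 µM (75.6 ± 3.13 CPM against 35.3 ± 1.91 in DMSO, edgeR adjusted p = 7.86e-06). CHAC1, which degrades glutathione, rose by 3.17 ± 0.22 and DDIT3, encoding the stress factor CHOP, by 2.98 ± 0.19. SESN2, an inhibitor of mTORC1 also induced by p53, rose by 1.45 ± 0.10 at 5 µM and 2.14 ± 0.10 at 10 µM. SLC7A5 and CEBPG rose by 0.71 and 0.78. NUPR1, a stress-induced chromatin factor of low level, rose by 1.61 (edgeR adjusted p = 0.0190), a call lost without DMSO replicate 2 or 3 or 10 µM replicate 2 (adjusted p up to 0.0816). DDIT4 and VLDLR, listed with the targets of ATF4, fell by 0.61 and 1.10, and ALDH18A1, a proline synthesis enzyme, fell by 0.22.

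**Figure D4:**
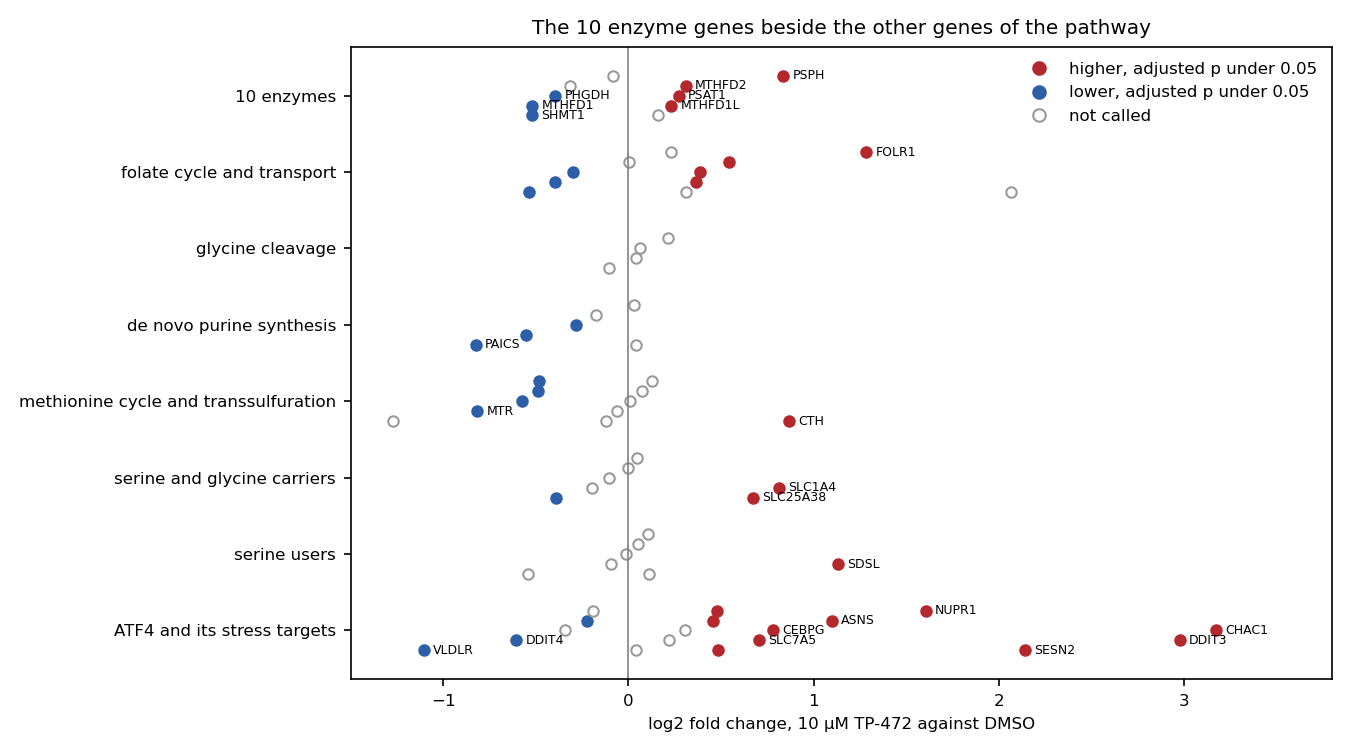
Log2 fold change at 10 µM against DMSO (edgeR) for the 10 enzyme genes in the top row and for the tested genes of 7 related lists, with red for called higher, blue for called lower and open grey for not called. Members lie within 0.84 of 0, while the ATF4 list reaches 3.17 at CHAC1 and the purine list has no red point.

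The genes whose log2 CPM over the 9 libraries was most like that of PSPH, the largest rise at 10 µM, were NUTM2B-AS1 (Pearson's r = 0.993), NXF1 (0.987), KLHL21 (0.986), TSPYL2 (0.983) and ORAOV1 (0.981), out of 9826 genes whose mean reached 10 CPM. For SHMT1, with the lowest log2 fold change at 10 µM (-0.52, level with MTHFD1), they were PDIA6 (0.983), SLC29A1 (0.983), HIBADH (0.981), ANP32B (0.978) and CHPT1 (0.977). These correlations rest on 3 groups in the same 9 libraries, and 150 and 87 genes respectively passed r = 0.95, so none of the named genes stands alone.

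The count of some members can hold reads of other loci. SHMT1 and MTHFD1 had expected counts that were not whole in all 9 libraries, so part of their reads was divided by estimate, while PHGDH, PSAT1, SHMT2, MTHFD2, MTHFD2L and ALDH1L2 had whole values in all 9. PSPH had whole values in 8 of the 9 and MTHFD1L in 7. GENCODE 29 lists 14 pseudogenes named after members, and the 1 in the count table, MTHFD2P1, had 0 to 44 counts in a library against 4770 to 7763 for MTHFD2. The others, among them PSPHP1, SHMT1P1 and those named after PSAT1, had no counts of their own. Whether reads from them entered the counts of members was not tested. Opposite-strand exons of other genes covered 33.2% of the exonic bases of MTHFD2, 11.0% of MTHFD1 and 9.51% of SHMT2, and no source used here says whether strand entered the counting. Of the neighbours over these genes, the 1 each with a row in the counts was far lower, and the others were not analysed here. SLC4A5, over MTHFD2, was at 6.05 CPM in DMSO and 7.36 at 10 µM, ZBTB25, over MTHFD1, at 4.96 and 5.61, and NDUFA4L2, over SHMT2, at 1.34 and 1.40, none of them called. SMCR8, over 2.69% of SHMT1, was at 51.9 and 63.2 CPM, and C12orf45, over 1.7% of ALDH1L2, at 7.70 and 15.2 CPM (edgeR adjusted p = 0.0188).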

How the data were processed

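Total RNA from A375 cells was made into strand-specific libraries and sequenced on an Illumina HiSeq. The labels' protocol states oligo-dT purification of mRNA, the design text states ribosomal RNA depletion, and the conflict could not be settled. The values that the authors deposited are RSEM expected counts for each gene symbol in 9 columns, without scaling to library size. The submitters' processing notes name Bowtie2 2.1.0, RSEM 1.2.15 and hg38. The annotation was not given in the sources used here. In each library 10.6% to 13.8% of the expected counts were not whole (tolerance 1e-09). They were rounded and tested with edgeR 4.0.16 in R 4.3.3 (TMM factors of 0.957 to 1.029, filterByExpr, quasi-likelihood F test, all 3 groups in 1 fit with 6 residual degrees of freedom), with Benjamini-Hochberg adjustment over 16417 genes. A call is an adjusted p under 0.05, SE was taken as the absolute log2 fold change over the root of the F statistic, and intervals are 95%. CPM use TMM-scaled library sizes. No libraries had identical values: chi-square per degree of freedom between replicates was 5.44 to 318. Where nothing says that replicates were separate cultures beyond the label, p-values measure the spread between these libraries.

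Members, lists and promoter motifs were chosen with earlier results of these data known, and lists were written from general knowledge. A gene of the folate list is not reported here and was left out of the list counts. Named genes are all members, list genes called at 10 µM with a fold of at least 1.5, ATF4, the 5 genes most like PSPH and SHMT1, and pseudogenes named after members. TYMS, SFXN1, GART, PFAS, CBS, ALDH18A1 and the genes overlapping members were named after their values were seen. Alternatives were size factors of the DESeq2 type or from the upper quartile, no filter or a minimum of 1 CPM in 3 libraries, DESeq2 1.42.0, limma-voom (limma 3.58.1), a replicate block, only the 2 groups compared, removal of ribosomal RNA genes and leaving out each library. The scripts were tested on simulated data. Coordinates are from GENCODE 29 on GRCh38, and promoter sequences are from RefSeq.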

Additional observations from a re-analysis of the deposited data

How the results depend on the processing

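Of 540 values of the members under alternatives, 482 kept their direction and side of the threshold, 19 newly passed, 35 no longer passed and 4 changed sign. With single libraries left out, sign changes, none of them called, came for MTHFD2L at 5 µM (-0.0550 to 0.173), MTHFD1L between the doses (-0.0221 to 0.0762), ALDH1L2 between the doses (-0.0572 to 0.239), NUPR1 at 5 µM (-0.316 to 0.106) and DDIT4 between the doses (-0.119 to 0.0213). DDIT4 between the doses was at 0.00444 with upper-quartile factors and NUPR1 at 5 µM at 0.00817 with the replicate block.

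At 10 µM against DMSO 3 to 5 members rose and 2 to 4 fell under the alternatives, and 14 to 19 list genes rose and 10 to 16 fell, all within 1.5 times the main counts. At 5 µM, with only the 2 groups compared, 2 members rose and 4 fell, and 12 list genes rose and 17 fell; DESeq2 called 9 list genes higher and limma-voom 3. Leaving out 1 library gave 0 to 2 members rising and 0 to 4 falling, and 2 to 11 list genes rising and 2 to 17 falling. Between the doses, with only the 2 groups compared, 0 members and 7 list genes were higher and 0 list genes lower, and 1 member was lower with the filter of at least 1 CPM, DESeq2 or limma-voom. Leaving out 1 library gave 1 to 3 members higher, 0 to 2 lower and 0 to 9 list genes lower. The share of all genes called was worked out for only 1 of these alternatives, the fit without 10 µM replicate 1. There it was 34.2% at 5 µM, against 10.2% with all libraries. Counts under the other alternatives thus have no share of all genes beside them and are not a result about the members. The cause of these shifts was not tested.

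Replicate numbers did not pair the libraries: the 9 correlations of same-numbered deviations were -0.0357 to 0.0407. With the replicate block 3 members rose and 3 fell at 10 µM, MTHFD1L being lost, and 1 list gene was lower between the doses; the counts of members at 5 µM were 1 and 2. MTHFD2L had the lowest counts of the members, and 3 libraries per group limit all p-values.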
